A study of Mus musculus with 36 samples.

Results

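XY germ cells were compared with XX germ cells at the stage labelled TS24, in 5 of the 36 arrays of the series: the XY samples of replicates 1, 2 and 3 and the XX samples of replicates 1 and 2. The samples were chosen by their titles. The third XX library, replicate 3, was left out because its profile was somatic, with Pou5f1 at 5.07 and Wt1 at 11.19 on the log2 scale. All 6 germ cell groups carried an Oct4 reporter and came from mice that the labels describe as descended from C57BL/6NJ and kept on a mixed background. For every sample, male and female gonads from timed matings were pooled apart, broken up with trypsin, given the viability stain DAPI and passed through a fluorescence sorter. The Oct4 gene, Pou5f1, is active in germ cells at these stages, so the reporter stands for germ cells as a class and not for 1 of their states. The labels place TS24 during sexual differentiation, TS13 before it and TS34 after it, and they give neither the age of the embryos nor whether replicates were separate pools. The other 30 arrays in the fit, germ cells of both sexes at TS13 and TS34 and supporting cells at all 3 stages, served to estimate the spread of each gene. The supporting cells at TS24 came from other lines, Tg(Sox9-cre/ERT2) on C57BL/6 for XY and Tg(Sry-EGFP) on CD-1 for XX.

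Germ cells reach the fetal gonad in the same state in both sexes and take their sexual fate from the somatic cells around them. In the ovary, BMP and retinoic acid signals bring germ cells to express Stra8 and enter meiosis, while in the testis the enzyme Cyp26b1 degrades retinoic acid, and germ cells leave the cell cycle and take up a male programme. Nodal signalling, which acts through the co-receptor Cripto (the product of Tdgf1), activin receptors and SMAD proteins and switches on its own antagonists of the Lefty family, is active for a short time in XY germ cells and is known to delay their differentiation.

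The values are log2 expression per gene from Affymetrix Mouse Gene 1.0 ST arrays, which read a transcript with probes spread over its exons. On the 5 arrays the germ cell genes Pou5f1, Ddx4, Dazl, Dppa3, Dppa5a and Kit lay between 10.24 and 13.38. The left-out library had Ddx4 at 5.04. The Y-linked gene Eif2s3y, which encodes a translation initiation subunit, was at 10.01, 9.83 and 10.04 on the XY arrays, against 5.73 and 4.46 on the XX arrays. The somatic gonad factor Wt1 was at 7.34, 7.75 and 7.57 on the XY arrays, against 7.18 and 8.19 on the XX arrays, and the supporting cells at this stage averaged 11.25 in XY and 11.49 in XX. XX replicate 2 thus had the highest Wt1 of the 5, and it also had the highest level of the stromal factor Nr2f2, at 8.12 where the other 4 arrays had 6.39 to 7.27. Over the 14 genes of gonadal somatic progenitors its mean level was 7.37, against 6.94 to 7.09 on the XY arrays and 6.97 on XX replicate 1. With both XX arrays averaged, 0 of the 14 genes were called between the sexes with limma (5 at an unadjusted p under 0.05). The median difference of the 14 (log2, XY minus XX) was -0.08, where it was 0.02 over all genes. With XX replicate 2 as the only XX array these medians were -0.19 and 0.12, and with XX replicate 1 alone 0.08 and 0.0. Over 13 interstitial and stromal genes XX replicate 2 had 7.44, against 7.09 to 7.23 on the XY arrays and 7.06 on XX replicate 1. Their median difference was -0.05, and it was -0.12 with XX replicate 2 as the only XX array and 0.05 with XX replicate 1 alone. In such bulk samples a larger share of a cell type and more RNA per cell of that type cannot be told apart.

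Between the sexes, 345 of 17781 genes tested (1.94%) were called, which means a Benjamini-Hochberg adjusted p under 0.05 with limma. In XY germ cells 87 genes were higher (0.489% of those tested) and 258 were lower (1.45%). The median difference over all genes was 0.02. The differences are log2 values, XY minus XX, given ± limma's standard error for means of 3 XY and 2 XX arrays. That error takes each gene's spread from all 35 arrays of the fit, so it is not the scatter of the 5 arrays compared. Of the called genes, 58 higher and 139 lower genes differed by more than 1, and 9 higher and 9 lower genes by more than 2. At an unadjusted p under 0.05 there were 2660 genes (15%). The arrays of the sexes did not overlap in 4969 genes (27.9%), the share against which the lack of overlap of a single gene is to be read. The counts depended on single libraries. Without XX replicate 2, 88 genes were called (30 higher, 58 lower), and without XY replicate 2, 143 (48 higher, 95 lower). They depended on the scaling too: quantile normalization gave 189 genes higher and 556 lower, and median centring gave 211 higher and 523 lower. XX replicate 2 lay above XX replicate 1 in 186 of the 258 lower genes (72.1%), where it did so in 47.7% of all genes. The part of that library's other differences in these calls was not tested.

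**Figure D1:**
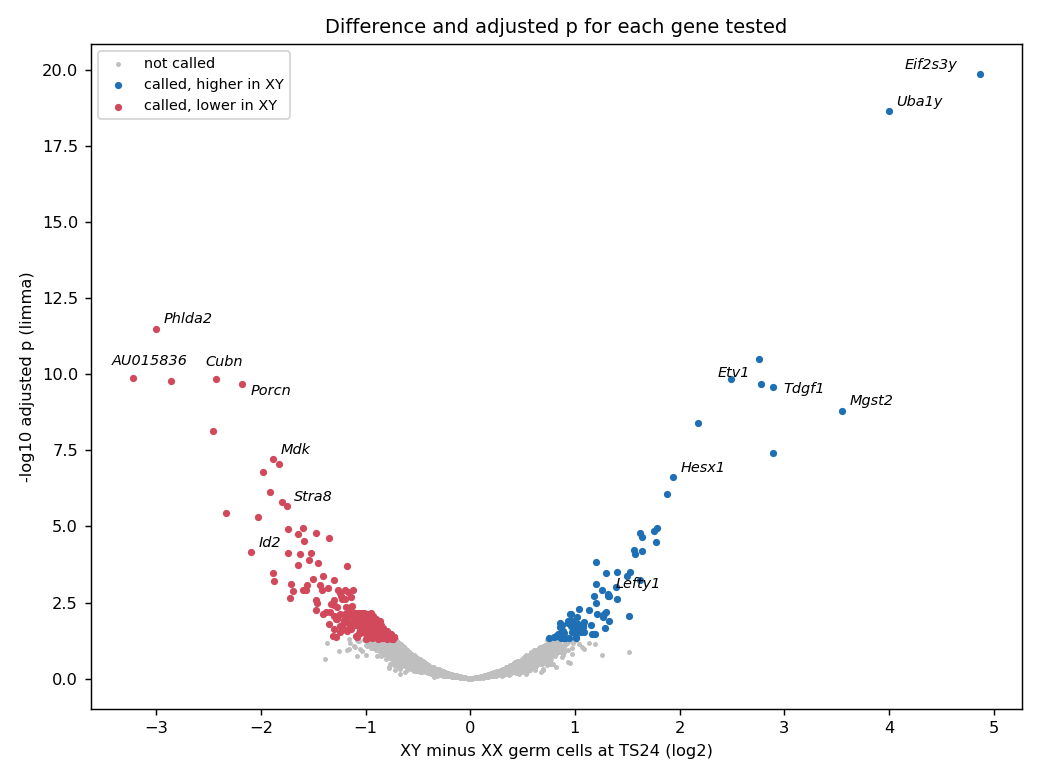
Each point is 1 of 17781 genes, with the XY minus XX difference in germ cells at TS24 (log2) on the horizontal axis and -log10 of limma's adjusted p on the vertical axis. The 258 genes called lower in XY outnumber the 87 called higher, and the Y-linked Eif2s3y and Uba1y stand at the far upper right.

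Tdgf1, the Nodal co-receptor gene, was the member of the Nodal pathway that differed most. Its log2 level was 10.59, 10.68 and 10.99 on the XY arrays, against 8.31 and 7.42 on the XX arrays. The groups lay far apart, and the XY arrays were closer to each other than the XX arrays were. The difference was 2.89 ± 0.29, a fold of 7.40 (adjusted p = 2.65e-10, limma), and it was 2.45 without XX replicate 2. At TS13 the level was already high in both sexes, at 11.19 ± 0.35 in XY and 10.30 ± 0.49 in XX germ cells (SD, n = 3 each). Of all genes, 1.48% were called between TS13 and TS24 in XY germ cells (0.827% higher and 0.652% lower at TS24) and 1.2% in XX germ cells (0.967% higher and 0.231% lower). Over this step Tdgf1 fell by 2.44 in XX germ cells (adjusted p = 2.81e-07), while the change in XY germ cells was -0.44 (adjusted p = 0.614). The 2 steps and the TS24 difference share arrays and are given side by side only.

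Lefty1 and Lefty2 encode secreted antagonists of Nodal and are targets of its signal. Lefty1 was at 6.34, 7.39 and 6.64 on the XY arrays, against 5.53 and 5.41 on the XX arrays, and Lefty2 at 6.17, 6.32 and 7.34 against 5.48 and 5.81. Neither gene overlapped between the sexes, but the highest XY array was replicate 2 for Lefty1 and replicate 3 for Lefty2. The differences were 1.32 ± 0.26 for Lefty1 (adjusted p = 0.00163) and 0.97 ± 0.26 for Lefty2 (adjusted p = 0.0298). Both calls were lost when single libraries were left out. The adjusted p of Lefty1 was 0.0709 without XX replicate 2 and 0.0511 without XY replicate 2. That of Lefty2 was 0.128 without XX replicate 2, 0.19 without XX replicate 1 and 0.231 without XY replicate 3, where its differences were 1.13, 0.80 and 0.60 in that order.

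The rest of the pathway gave no call. Of 4 ligand and co-receptor genes measured, 1 was called, Tdgf1. The ligand gene Nodal itself was at 7.15, 7.69 and 7.41 on the XY arrays, against 6.97 and 7.07 on the XX arrays, without overlap and with a difference of 0.40 ± 0.23 (adjusted p = 0.419). The related ligand gene Gdf3 differed by -0.22 and the second co-receptor gene Cfc1 by 0.21. Of 8 receptor and transducer genes 0 were called with limma (1 at an unadjusted p under 0.05), with a median of -0.25. The differences ran from -0.59 for Foxh1, the DNA-binding partner of the SMADs, to 0.17 for the receptor gene Acvr1c, with the receptor genes Acvr1b at -0.16, Acvr2a at -0.27 and Acvr2b at -0.40, and Smad2, Smad3 and Smad4 at -0.07, -0.36 and -0.24. Of 8 targets and antagonists 2 were called, both Lefty genes, and the median was 0.48. Without XX replicate 2, 0 of the 8 were called. The others were the transcriptional co-repressor genes Tgif1 at 0.88 (adjusted p = 0.116) and Skil at 0.43, the mesendoderm factor Eomes at 0.52, the inhibitory Smad7 at 0.37, the feedback inhibitor Pmepa1 at 0.18 and the secreted antagonist Cer1 at -0.04.

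The promoter of Tdgf1 is shown because the gene had the largest difference of the Nodal lists. It is the RefSeq window from 250 bases before to 50 bases after the start, on GRCm38.p6 at chr9:110946109-110946408, minus strand, with the match to the SMAD box in capitals.

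Tdgf1 promoter: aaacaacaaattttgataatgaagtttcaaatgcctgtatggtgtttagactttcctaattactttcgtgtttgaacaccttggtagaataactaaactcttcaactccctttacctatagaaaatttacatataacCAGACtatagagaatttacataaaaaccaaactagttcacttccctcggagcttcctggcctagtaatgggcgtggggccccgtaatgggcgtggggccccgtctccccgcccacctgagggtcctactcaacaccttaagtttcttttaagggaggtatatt

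On either strand the window held 1 SMAD box (CAGAC), 113 bases before the start, and no FOXH1 motif (TGTGNATT). Of 27025 promoter windows of this length, 49.7% hold the SMAD box and 3.63% the FOXH1 motif.

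**Figure D2:**
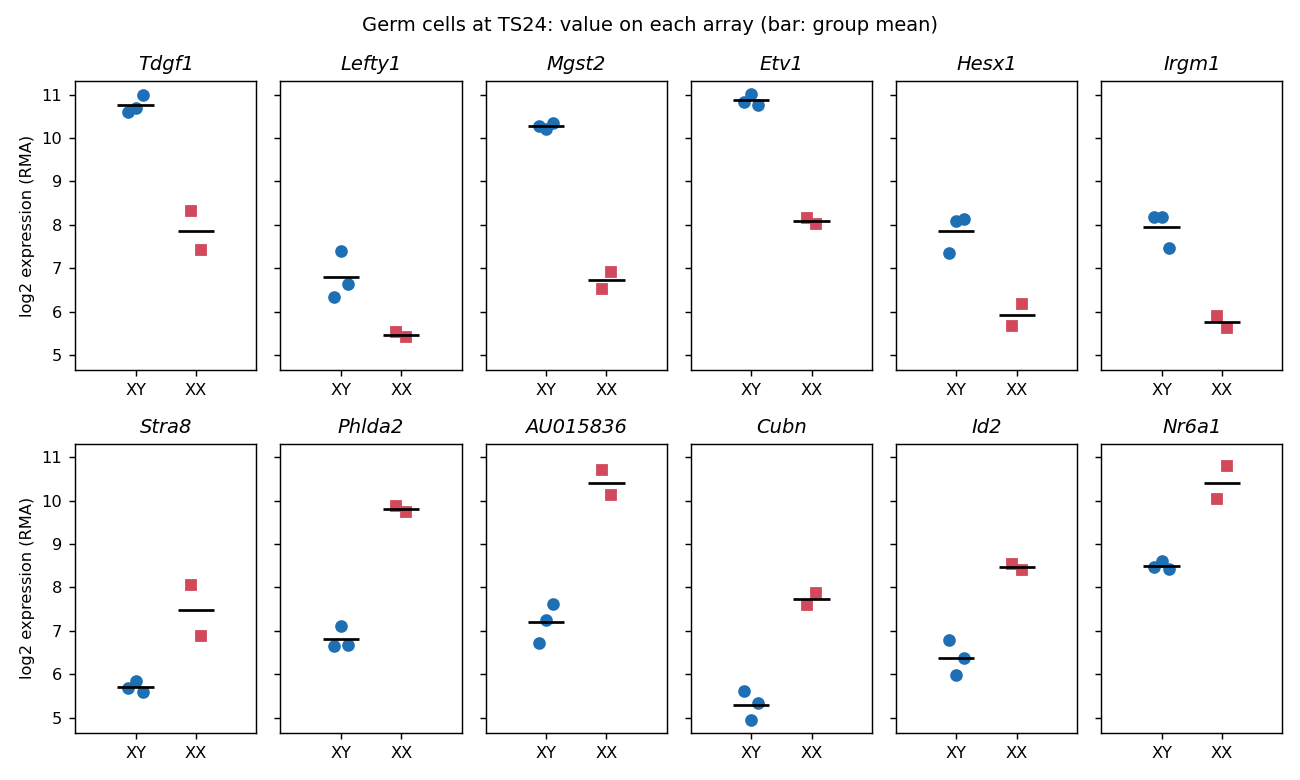
The log2 expression (vertical axis) of 12 genes is plotted for each array, with XY germ cells (circles, 3 arrays) left of XX germ cells (squares, 2 arrays) and bars at the group means. None of the 12 genes overlaps between the sexes. Apart from Lefty1 and Stra8, all are among the 15 highest or 15 lowest called genes without overlap, so this follows from the choice. Of all genes tested, 27.9% do not overlap. The XX arrays lie furthest apart for Stra8, at 8.06 and 6.88.

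Outside the Nodal pathway, the autosomal gene with the largest difference in either direction was Mgst2, which encodes a microsomal glutathione transferase. It was at 10.27, 10.20 and 10.35 on the XY arrays, against 6.53 and 6.91 on the XX arrays. The arrays of each sex lay close together and far from those of the other sex. The difference was 3.55 ± 0.37, a fold of 11.7 (adjusted p = 1.57e-09, limma). Mgst2 was 1 of 12 glutathione transferase genes measured and the only one called. Its relatives Mgst1 and Mgst3 differed by 0.51 and 0.46, and the median of the 12 was 0.12.

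Etv1, an ETS factor that acts downstream of FGF receptors, was at 10.84, 11.01 and 10.75 on the XY arrays, against 8.16 and 8.01 on the XX arrays. The gap between the sexes was several times the range within each, and the difference was 2.78 ± 0.27 (adjusted p = 2.12e-10). Its close relative Etv4 was higher in XY as well, by 0.87 ± 0.23 (adjusted p = 0.0355), but lost the call when any 1 of the 5 arrays was left out (adjusted p of 0.0592 to 0.342). The third member of their subfamily, Etv5, had 0.69 (adjusted p = 0.212). Among 14 genes of FGF receptors and of their ETS, Sprouty and DUSP responders, those 2 were called, both higher, and the median was 0.27. Sprouty gene Spry2 had 0.67, the MAP kinase phosphatase genes Dusp4 and Dusp6 had 0.26 and 0.28, and the receptor genes ran from -0.49 for Fgfr1 to 0.31 for Fgfr2.

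Hesx1, a homeobox repressor best known from the forebrain and the pituitary, was at 7.36, 8.08 and 8.14 on the XY arrays, against 5.66 and 6.17 on the XX arrays. All XY arrays exceeded both XX arrays, by 1.94 ± 0.25 in the mean (adjusted p = 2.36e-07). Lhx1, a LIM homeobox gene, differed by 1.64 ± 0.25 (adjusted p = 2.17e-05). Irgm1, an immunity-related GTPase gene, had a difference of 2.18 ± 0.24. Pdlim3, which encodes a protein of the actin cytoskeleton, had 1.88 ± 0.25, the diacylglycerol kinase gene Dgka 1.62 ± 0.25 and the mitochondrial sirtuin gene Sirt4 1.64 ± 0.27. The uncharacterised 1700024G13Rik had 1.76 ± 0.26. These genes stayed called whichever of the 5 arrays was left out.

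Genes that supporting cells express strongly were also among those higher in XY. Cst9, a cystatin gene known from Sertoli cells, was at 7.34, 7.54 and 7.79 on the XY arrays, against 4.72 and 4.61 on the XX arrays, while XY supporting cells of the same stage averaged 12.20. The groups were far apart, by 2.89 ± 0.34 (adjusted p = 3.93e-08). Gatm, which encodes the first enzyme of creatine synthesis, differed by 1.77 ± 0.28, and Aldh1a1, a retinaldehyde dehydrogenase gene, by 1.56 ± 0.25, with XY supporting cell means of 11.91 and 11.24. Cst9 and Gatm were the 2 of 24 Sertoli genes called, and the median of the 24 was 0.16. Over those 24 genes, with Cst9 and Gatm included, the mean level was 6.99 to 7.11 on the XY arrays, against 6.80 and 6.71 on the XX arrays. It was 9.70 in XY supporting cells. These means are therefore not separate from the 2 calls. The defining Sertoli genes were less apart: Amh was at 5.73, 6.28 and 5.92 on the XY arrays, against 5.77 and 5.95 on the XX arrays, with 10.00 in XY supporting cells, and Dhh differed by 0.40 and Sox9 by -0.31. None of these values was at 0, as array values keep a background. The part of RNA from supporting cells in the differences of Cst9, Gatm and Aldh1a1 was not tested. Of the 87 higher genes, 23 (26.4%) had a higher mean in XY supporting cells than in XY germ cells, where 48.3% of all genes did. Between XX supporting and XX germ cells the share was 50.6% of the 87, where it was 44.3% of all genes. The 87 were chosen for a high XY and a low XX germ mean, which moves both shares by itself. Neither share can tell how much somatic RNA there was.

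Stra8, the gene that retinoic acid induces as germ cells prepare for meiosis, was at 5.69, 5.85 and 5.60 on the XY arrays, against 8.06 and 6.88 on the XX arrays. The XY arrays lay near the background of the arrays, whose 25th percentiles ran from 5.45 to 5.54, and both XX arrays were higher, replicate 1 more so than replicate 2. The difference was -1.75 ± 0.24 (adjusted p = 2.19e-06, limma), -2.34 without XX replicate 2 and -1.17 without XX replicate 1 (adjusted p = 0.0128). With the left-out library added it was -0.95 (adjusted p = 0.11). Between TS13 and TS24 Stra8 rose by 2.31 in XX germ cells (adjusted p = 1.72e-08) and changed by 0.32 in XY germ cells (adjusted p = 0.714). These steps use the TS24 arrays too.

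The Stra8 promoter is shown because retinoic acid receptors are known to act on this gene. The RefSeq window (GRCm38.p6, chr6:34920698-34920997, plus strand) has in capitals its matches to the retinoic acid receptor half-site AGGTCA and to CCTCAG, the core of the motif known for STRA8 and its partner MEIOSIN, which here reads CTGAGG on the printed strand.

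Stra8 promoter: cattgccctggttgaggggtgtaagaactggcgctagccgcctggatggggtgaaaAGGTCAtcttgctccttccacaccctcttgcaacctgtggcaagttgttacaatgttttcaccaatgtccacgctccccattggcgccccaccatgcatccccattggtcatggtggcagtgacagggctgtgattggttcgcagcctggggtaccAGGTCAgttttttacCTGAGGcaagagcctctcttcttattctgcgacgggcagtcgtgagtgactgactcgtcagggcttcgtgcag

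The half-site occurred at 194 and at 38 bases before the start, and CCTCAG once, on the opposite strand, 23 bases before it. On either strand, 16% of all promoter windows hold AGGTCA and 26.6% hold CCTCAG.

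Of 10 genes of meiotic entry, 4 were lower in XY germ cells, 0 were higher, and the median was -0.65. Meioc, whose product keeps germ cells in meiotic prophase, was at 5.64, 5.26 and 5.81 on the XY arrays, against 8.05 and 5.56 on the XX arrays. XX replicate 2 was inside the XY range, so the called difference of -1.24 ± 0.33 (adjusted p = 0.0302) rests on XX replicate 1. Without that array it was 0.01. Rec8, the meiotic cohesin subunit, was at 6.24, 6.11 and 6.47 in XY against 6.91 and 7.87 in XX, where the higher array was replicate 2. Its difference was -1.11 ± 0.26 (adjusted p = 0.0107), with an adjusted p of 0.523 without XX replicate 2 and 0.077 without XY replicate 2. Zglp1, a regulator of the oogenic programme, had -0.85 ± 0.22 (adjusted p = 0.0256) and lost the call without either XX array (0.0704 and 0.349) and without XY replicate 2 or 3 (0.107 and 0.104). Without XX replicate 2, 2 of the 10 genes remained called, Stra8 and Meioc, and without XY replicate 2, 1 of the 10. Among the other 6, Msx1 had -0.72 (adjusted p = 0.0785), Rbm46 -0.59, Ythdc2, the partner of Meioc, -0.55, Msx2 -0.38, Dazl 0.07 and Dmrt1 0.39.

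Genes that act later in meiosis are given by list. Of 14 genes of the chromosome axis and the synaptonemal complex 0 were called with limma (1 at an unadjusted p under 0.05), with a median of -0.21 and a range from -0.60 for Sycp3 to 0.79 for Sycp2. Of 18 recombination genes 3 were lower and 1 was higher, with a median of -0.04. M1ap, needed for male meiosis in mice, was at 6.75, 6.28 and 6.60 on the XY arrays, against 8.56 and 7.73 on the XX arrays. The sexes did not overlap, and the difference was -1.60 ± 0.24 (adjusted p = 1.16e-05). Meiob, which encodes a single-strand DNA binding protein, had -1.46 ± 0.31 (adjusted p = 0.0032; 0.113 without XX replicate 1 and 0.0629 without XY replicate 1), and Msh4, of the crossover complex, -0.98 ± 0.22 (adjusted p = 0.00736; 0.0819 without XX replicate 2, 0.0748 without XX replicate 1 and 0.0632 without XY replicate 2). Tex11, an X-linked crossover gene, went the other way. It was at 7.85, 8.50 and 8.05 on the XY arrays, against 6.80 and 6.65 on the XX arrays, a difference of 1.40 ± 0.25 (adjusted p = 0.000321).

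**Figure D3:**
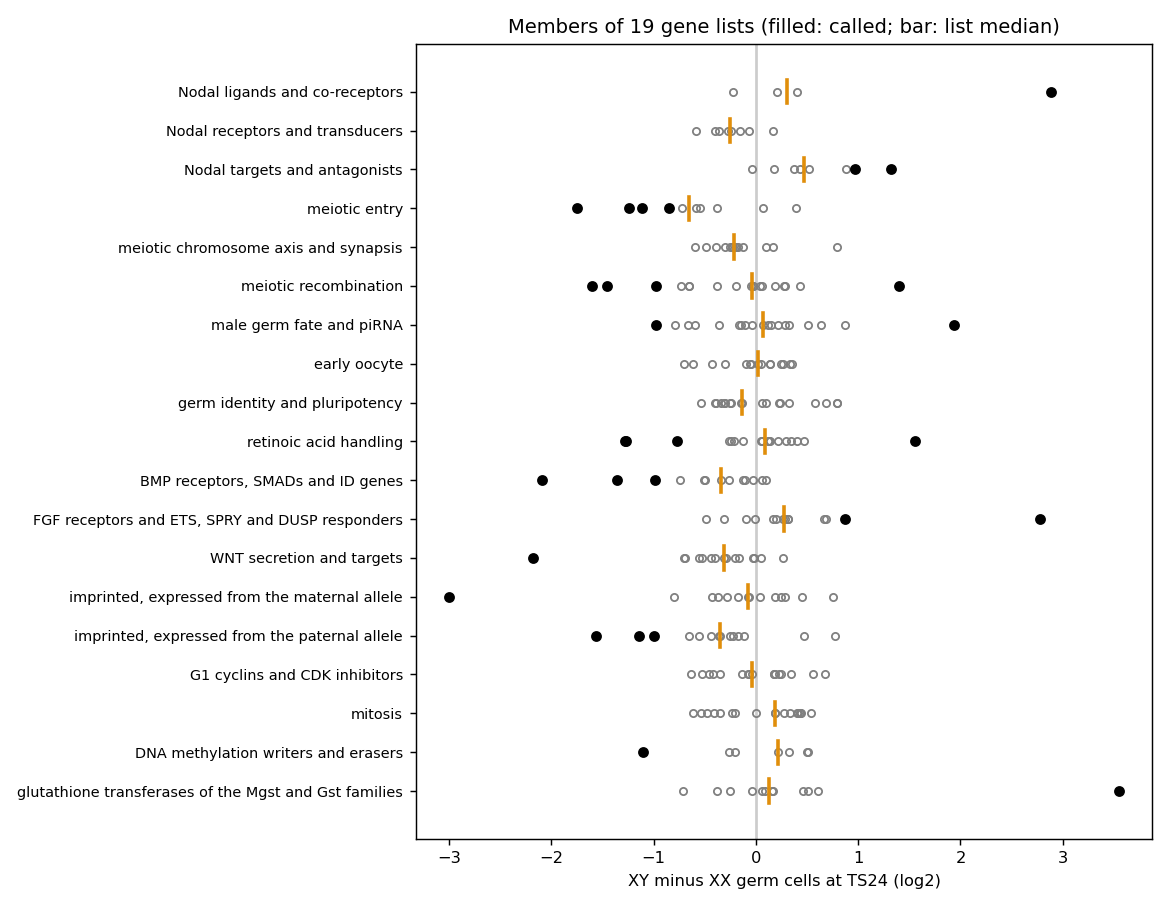
For 19 gene lists (rows) each circle is 1 gene placed at its XY minus XX difference in germ cells at TS24 (log2, horizontal axis), filled where limma called it, with a bar at the list's median. Most members of every list are open circles within 1 of 0, and single filled members such as Phlda2, Mgst2, Tdgf1 and Etv1 lie far outside their lists.

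Phlda2 is a maternally expressed imprinted gene that limits growth of the placenta. It was at 6.65, 7.11 and 6.67 on the XY arrays, against 9.87 and 9.75 on the XX arrays. The 2 XX arrays were nearly alike and lay well above all XY arrays, with a difference of -3.0 ± 0.25, which is 8.0-fold lower in XY (adjusted p = 3.17e-12, limma). Between TS13 and TS24 it fell by 2.45 in XY germ cells (adjusted p = 2.34e-10), while XX germ cells changed by -0.21 (adjusted p = 0.804). Supporting cells had 6.20 in XY and 6.44 in XX at TS24. Phlda2 was the 1 gene called of 14 imprinted genes expressed from the maternal allele, whose median was -0.08. Among its neighbours in the imprinted cluster, Cdkn1c, Slc22a18 and Ascl2 had -0.07, -0.28 and 0.25. Kcnq1, Cd81, Osbpl5 and Tssc4 had 0.04, 0.19, 0.45 and 0.75, also without a call.

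Of 14 imprinted genes expressed from the paternal allele, 3 were lower in XY and 0 higher, with a median of -0.36 and 12 of 14 differences below 0. The zinc finger gene Plagl1 had -1.56 ± 0.29 (adjusted p = 0.000848), Impact, a regulator of translation, -1.14 ± 0.24 (adjusted p = 0.0045), and Ndn, a growth suppressor known from neurons, -1.0 ± 0.28 (adjusted p = 0.0492). Without XX replicate 2 the list had 1 call: the adjusted p was 0.215 for Plagl1 and 0.512 for Ndn. Impact was not called without XX replicate 1 (0.0798), and Ndn had 0.441 without XY replicate 2. Supporting cells express this list more, with means of 8.49 in XY and 9.24 in XX, against 7.64 to 7.82 on the XY germ arrays and 7.90 and 8.30 on the XX germ arrays. The part of somatic RNA in these differences was not tested.

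The other genes with the largest differences toward XX had varied functions. AU015836, an X-linked gene without a described function here, was at 6.72, 7.26 and 7.62 on the XY arrays, against 10.70 and 10.13 on the XX arrays, a difference of -3.22 ± 0.31 (adjusted p = 1.32e-10). It was high in XY supporting cells, at 11.10. Another X-linked gene named only by a clone, 1700013H16Rik, had -2.86 ± 0.28. Calcoco2, an autophagy receptor gene, had -2.46 ± 0.27. Cubn, the endocytic receptor for vitamin B12 bound to intrinsic factor, was at 5.62, 4.95 and 5.33 on the XY arrays, against 7.60 and 7.87 on the XX arrays. Its XY arrays lay near background, and the difference was -2.43 ± 0.23 (adjusted p = 1.43e-10). The kinase gene Nrk had -2.03 ± 0.29, the axonemal dynein gene Dnah8 -1.98 ± 0.25, the growth factor gene Mdk -1.88 ± 0.23 and desmoplakin, Dsp, -1.83 ± 0.22. Lrrc34 had -1.88 ± 0.34 and Vopp1 -1.87 ± 0.35, and both lost the call without XX replicate 2 (adjusted p of 0.0996 and 0.0661). The mitochondrial glycerol-3-phosphate dehydrogenase gene Gpd2 had -1.59 ± 0.25 and was called whichever array was left out.

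A cluster on chromosome 2 brought together a nuclear receptor gene and 2 microRNA genes. Nr6a1 (GCNF), an orphan nuclear receptor that represses Pou5f1 during early development, lies at chr2:38723369-38926461 on the minus strand of GRCm38.p6, and the hairpins of Mir181a-2 and Mir181b-2 lie inside its interval on the plus strand. Their mature 5′ sequences from RefSeq are shown with the seed, bases 2 to 8, in capitals, because both share it (ACAUUCA). They map to chr2:38852741-38852763 and chr2:38853845-38853868.

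mmu-miR-181a-5p: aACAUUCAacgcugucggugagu

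mmu-miR-181b-5p: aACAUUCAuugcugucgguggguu

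Nr6a1 was at 8.47, 8.62 and 8.42 on the XY arrays, against 10.04 and 10.79 on the XX arrays, a difference of -1.91 ± 0.25 (adjusted p = 7.25e-07, limma). The probe set of Mir181b-2 was at 7.42, 6.55 and 7.56 on the XY arrays, against 9.22 and 9.79 on the XX arrays, a difference of -2.33 ± 0.33 (adjusted p = 3.71e-06). The probe set of Mir181a-2 was at 6.53, 6.18 and 6.77 against 7.25 and 7.72, a difference of -0.99 ± 0.26 (adjusted p = 0.0256; 0.47 without XX replicate 2, 0.197 without XY replicate 2 and 0.058 without XY replicate 1). All 3 were lower on every XY array than on either XX array. These probe sets read transcripts over the hairpins, and the mature microRNAs with the printed seed were not measured. At TS34 the difference was -1.56 ± 0.23 for Nr6a1 (adjusted p = 1.05e-06) and -1.23 ± 0.29 for Mir181b-2 (adjusted p = 0.0026).

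Of the 4 ID genes, which respond to BMP, Id1, Id2 and Id3 were called lower in XY germ cells, and Id2 alone kept the call whichever of the 5 arrays was left out. Id2, which encodes an inhibitor of basic helix-loop-helix factors, was at 6.79, 5.99 and 6.37 on the XY arrays, against 8.55 and 8.40 on the XX arrays, a difference of -2.09 ± 0.34 (adjusted p = 6.88e-05, limma). Id1 had -1.36 ± 0.26 (adjusted p = 0.00105; 0.055 without XX replicate 1) and Id3 -0.99 ± 0.27 (adjusted p = 0.0334; 0.125 without XX replicate 2, 0.209 without XX replicate 1, 0.191 without XY replicate 1 and 0.0815 without XY replicate 3). The fourth family member, Id4, had -0.11 and was not called. These were the 3 calls among 13 genes of BMP receptors, SMADs and ID proteins, none was higher, and the median was -0.34. Without XX replicate 1, 1 of the 13 was called. The receptor genes Bmpr1a, Acvr1 and Bmpr2 had -0.50, -0.51 and -0.03, and Smad1 and Smad5 0.06 and -0.34. The means of Id1, Id2 and Id3 were 8.92, 8.47 and 8.87 in XX germ cells and 9.23, 8.64 and 9.58 in XX supporting cells.

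Porcn, the X-linked gene of the enzyme that attaches a lipid to WNT proteins before secretion, was at 7.53, 7.51 and 7.79 on the XY arrays, against 9.72 and 9.85 on the XX arrays. The arrays of each sex were close together, and the difference was -2.18 ± 0.21 (adjusted p = 2.12e-10). It was the only one called of 15 genes of WNT secretion and WNT targets, whose median was -0.31. The target genes Axin2, Nkd1 and Lef1 had -0.69, -0.70 and -0.31, and Rnf43, Znrf3, Sp5 and Lgr5 had -0.20, -0.03, 0.05 and 0.26. Of the 15 differences 13 were below 0 and 2 above.

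Of 18 genes that handle retinoic acid 1 was higher and 3 were lower, with a median of 0.09. Besides Aldh1a1, these were the binding protein genes Crabp1 (-1.27 ± 0.30, adjusted p = 0.0111) and Crabp2 (-1.28 ± 0.30, adjusted p = 0.0107) and the receptor gene Rxra (-0.77 ± 0.22, adjusted p = 0.0456). None of the 3 lower genes was called without XX replicate 2 (adjusted p of 0.235, 0.328 and 0.346) or without XY replicate 1 (0.0807, 0.0933 and 0.101), and Rxra was not called without any of the others either, at up to 0.182 among the XY arrays and 0.128 without XX replicate 1. Crabp1 was strongly expressed in both sexes, at 9.74, 10.40 and 10.26 on the XY arrays, against 11.31 and 11.50 on the XX arrays. The degrading enzyme gene Cyp26b1 had a difference of 0.22, and the receptor genes Rara, Rarb and Rarg had 0.34, -0.26 and 0.29.

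Other programmes showed few differences or none. Of 19 genes of male germ cell fate and the piRNA pathway, Hesx1 was higher and Tex101, a germ cell surface protein gene, was lower (-0.98 ± 0.25, adjusted p = 0.0196; 0.113 without XX replicate 2, 0.154 without XX replicate 1 and 0.0882 without XY replicate 2), and the median was 0.07. Nanos2, a male fate regulator, had 0.64 (adjusted p = 0.202), and Tdrd5, of the piRNA pathway, 0.87 (adjusted p = 0.0507). Of 15 early oocyte genes 0 were called (median 0.02; 2 at an unadjusted p under 0.05), among them Figla at 0.05 and Nobox at -0.06. Of 19 germ cell identity and pluripotency genes 0 were called (median -0.14; 3 at an unadjusted p under 0.05), with Nanog at -0.54, Sox2 at -0.15 and Dppa5a at 0.79. Of 17 genes of G1 cyclins and CDK inhibitors 0 were called (2 at an unadjusted p under 0.05), with the inhibitor gene Cdkn1b at 0.56 and the cyclin gene Ccnd1 at -0.53, and of 18 mitosis genes 0 were called (median 0.19; 3 at an unadjusted p under 0.05). Among 7 genes that write or erase DNA methylation, the hydroxylase gene Tet2 was lower, by -1.10 ± 0.25 (adjusted p = 0.007; 0.132 without XX replicate 1 and 0.0648 without XY replicate 3), while Tet1 and Dnmt3b had 0.51 and 0.50.

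Of the lists for other cell types, 0 genes of pregranulosa (18), steroidogenic (7), endothelial (12), macrophage (11) and erythroid cells (7) and 0 of 12 dissociation stress genes were called with limma. At an unadjusted p under 0.05 there were 4, 3, 3, 0, 0 and 4 genes in these lists. Their median differences were 0.08, -0.32, -0.14, -0.18, 0.09 and -0.15 in the same order, where it was 0.02 over all genes. All 7 steroidogenic differences were below 0. Of 13 interstitial and stromal genes 1 was called. Dcn, a proteoglycan gene of stromal cells, was at 6.52, 6.17 and 6.36 on the XY arrays, against 7.19 and 7.99 on the XX arrays, a difference of -1.24 ± 0.31 (adjusted p = 0.0194; 0.493 without XX replicate 2 and 0.117 without XY replicate 2). The left-out XX library had 10.12. B2m, the light chain of class I MHC molecules, which somatic cells carry widely, had -1.38 ± 0.30 (adjusted p = 0.00667; 0.534 without XX replicate 2), with XX arrays at 7.11 and 8.52 and XX supporting cells at 11.41. Of 12 mesonephric epithelium genes, Lhx1 was higher and the keratin gene Krt18 lower (-1.05 ± 0.28, adjusted p = 0.0326; 0.0819 without XX replicate 2, 0.238 without XX replicate 1, 0.275 without XY replicate 2 and 0.0678 without XY replicate 3). In 78 of the 258 genes lower in XY (30.2%) XX supporting cells had a higher mean than XX germ cells, where they had so in 44.3% of all genes. XY supporting cells had a higher mean than XY germ cells in 172 of the 258 (66.7%), where they had so in 48.3% of all genes. The 258 were chosen for a high XX and a low XY germ mean, which moves both shares by itself. Neither share can tell how much somatic RNA there was.

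The X chromosome held a large share of the lower genes. Of 625 X-linked genes tested, 44 (7.04%) were lower in XY and 1, Tex11, was higher, with a median of -0.17. Of 17079 autosomal genes, 213 (1.25%) were lower and 81 (0.474%) higher, with a median of 0.02. Among autosomes the share of lower genes ran from 0.535% on chromosome 16 to 1.96% on chromosome 2. Without XX replicate 2 there were 14 X-linked lower genes beside 44 autosomal ones, and without XY replicate 2 there were 23 beside 72. Apart from those named above, Kdm6a, a histone demethylase gene that escapes X inactivation, had -1.74 ± 0.26 (adjusted p = 1.17e-05), Pls3, an actin-bundling gene, -1.74 ± 0.29 and the reproductive homeobox gene Rhox6 -1.64 ± 0.28 (adjusted p = 0.00018; 0.118 without XX replicate 2).

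Xist, whose RNA silences an X chromosome in female cells, was at 5.40, 5.97 and 5.89 on the XY arrays, against 6.60 and 8.29 on the XX arrays, and XX supporting cells averaged 11.33. The XX arrays differed more from each other than XX replicate 1 did from the XY arrays, and the difference of -1.69 ± 0.33 (adjusted p = 0.00134) had an adjusted p of 0.483 without XX replicate 2. Of 7 Y-linked genes tested 5 were called, all higher in XY: Eif2s3y by 4.87 ± 0.25, Uba1y by 4.0 ± 0.22, Zfy1 by 2.76 ± 0.25, Kdm5d by 2.49 ± 0.24 and Uty by 1.78 ± 0.26. Their X-linked partners Eif2s3x, Zfx and Kdm5c had 0.00, -0.13 and -0.44 without a call, while the partner of Uty is Kdm6a.

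**Figure D4:**
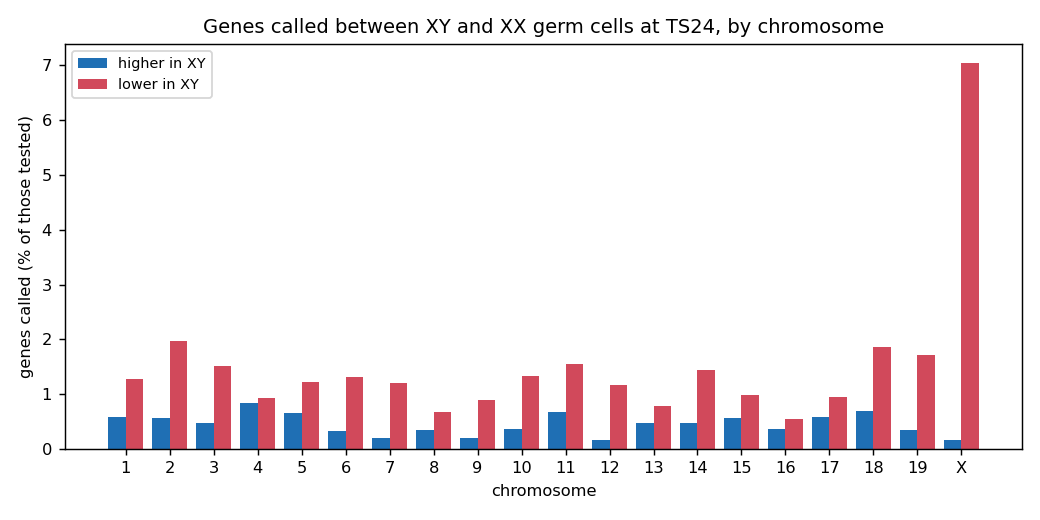
Bars give the percent of tested genes called higher (left bar of each pair) and lower (right bar) in XY germ cells at TS24, compared with XX, by chromosome, with the 7 Y-linked genes not drawn. The X chromosome stands out at 7.04% lower, where no autosome exceeds 1.96%.

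The sex differences at TS24 were set against those before and after. At TS13, 5 of 17781 genes were called (0.0281%), all higher in XY and all Y-linked: Eif2s3y, Uba1y, Zfy1, Kdm5d and Uty. No autosomal or X-linked gene was called there. At TS34 1848 were called (10.4%), 1061 higher (5.97%) and 787 lower (4.43%). The germ arrays at TS13 and TS34 are other samples than those at TS24. Of the 87 genes higher at TS24, 71 (81.6%) were also called higher at TS34, 0 were called lower there, and the same 5 Y-linked genes were called higher at TS13. Of the 258 lower genes, 113 (43.8%) were called lower at TS34, 2 were called higher there, and 0 were called at TS13 in that direction. The genes called in the same direction at both stages, 71 higher and 113 lower, were 27 and 45 without XX replicate 2 of TS24 and 39 and 61 without XY replicate 2 of TS24. The median differences of the 87 were 0.22, 1.15 and 1.18 at TS13, TS24 and TS34, and those of the 258 were -0.11, -1.01 and -0.54. The TS24 medians of both sets follow from how they were chosen.

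**Figure D5:**
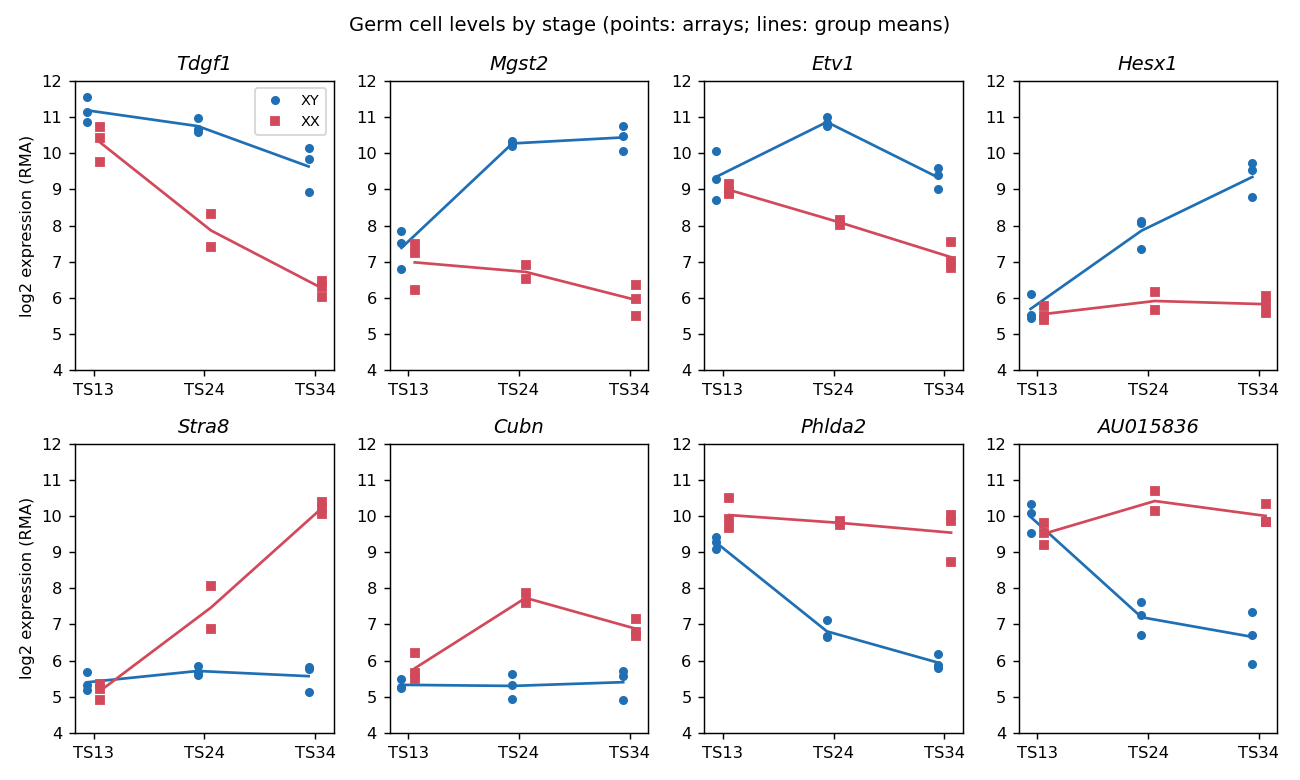
Log2 expression (vertical axis) of 8 genes in XY (circles) and XX (squares) germ cells at TS13, TS24 and TS34, with points for arrays and lines through group means (3 arrays each, and 2 for XX at TS24). The means of the sexes differ by at most 0.89 at TS13 and lie further apart at TS24 for all 8 genes. Apart from Stra8, all are among the 15 highest or 15 lowest called genes of TS24. Their wider gap at that stage follows in part from this choice. At TS13 the arrays of the sexes do not overlap for Tdgf1 and Phlda2, but neither was called there (adjusted p of 0.768 and 0.953, limma). The share of all genes without overlap at TS13 was not counted. Compared with TS13, at TS24 Tdgf1 is lower in XX, Mgst2 and Hesx1 are higher in XY and Phlda2 and AU015836 are lower in XY.

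A contrast of the differences themselves called 27 genes for TS24 minus TS13 (0.152%), 9 toward XY (0.0506%) and 18 toward XX (0.101%). That count was 142 without XY replicate 2 of TS13, 78 without XX replicate 1 of TS24 and 42 without XY replicate 3 of TS24. The largest values were -3.68 ± 0.41 for AU015836, 3.16 ± 0.50 for Mgst2, 2.42 ± 0.37 for Etv1, 2.32 ± 0.46 for Cst9, -2.28 ± 0.37 for 1700013H16Rik and -2.24 ± 0.34 for Phlda2. At TS13 the differences of these 6 genes, none of them called, were 0.47, 0.40, 0.36, 0.57, -0.57 and -0.76 in the same order, and Tdgf1 (0.89) and Porcn (-0.83) were further apart than these. AU015836 had 9.98 ± 0.41 in XY and 9.51 ± 0.30 in XX germ cells at TS13, Mgst2 had 7.38 ± 0.53 and 6.98 ± 0.67, and Etv1 had 9.35 ± 0.68 and 8.98 ± 0.14 (SD, n = 3 each). The steps toward TS24 ran in different sexes. In XY germ cells AU015836 fell by 2.78 (adjusted p = 1.07e-09), Mgst2 rose by 2.89 (adjusted p = 5.91e-08), Hesx1 rose by 2.16 (adjusted p = 1.9e-09) and Porcn fell by 1.49 (adjusted p = 6.07e-07), with XX steps of 0.90, -0.26, 0.37 and -0.14 that were not called. In XX germ cells Cubn rose by 1.95 (adjusted p = 2.81e-07) and Dnah8 rose by 1.41 (adjusted p = 0.000426), with XY steps of -0.03 and -0.37 that were not called.

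For TS34 minus TS24, 203 genes were called (1.14%), 132 with a more positive (0.742%) and 71 with a more negative (0.399%) XY minus XX difference at TS34. The count was 60 without XX replicate 2 of TS24, 113 without XY replicate 2 of TS24, 444 and 114 without XY replicates 1 and 3 of TS34, and 323 and 79 without XX replicates 1 and 3 of TS34. The difference of Stra8 was -4.65 ± 0.22 at TS34 and moved by -2.90 (adjusted p = 4.62e-08), with XX germ cells at 10.22 ± 0.17 and XY germ cells at 5.57 ± 0.39 there. Meioc moved by -3.32 (adjusted p = 2.69e-06), Meiob by -2.53 (adjusted p = 0.000135), M1ap by -2.33 (adjusted p = 4.58e-06), Tex101 by -1.68 (adjusted p = 0.00252) and Rec8 by -1.29 (adjusted p = 0.049). Tex11, higher in XY at TS24, had -0.04 at TS34, a change of -1.44 (adjusted p = 0.0155). Hesx1 moved further toward XY, by 1.58 (adjusted p = 0.00515), as did Dgka, by 1.23 (adjusted p = 0.0468). Differences toward XX that were small by TS34 were those of Tet2 (0.30 at TS34, a change of 1.40, adjusted p = 0.0171), Impact (0.10, a change of 1.24, adjusted p = 0.0419), Ndn (0.45, a change of 1.45, adjusted p = 0.0418) and Dap, a gene of the cell death and autophagy machinery (-1.63 ± 0.27 at TS24 and -0.24 at TS34, a change of 1.40, adjusted p = 0.0374). Tdgf1 had 3.37 ± 0.26, Lefty1 1.60 ± 0.23 and Phlda2 -3.59 ± 0.23 at TS34, each called there, and the change since TS24 was not called for any of them (adjusted p of 0.722, 0.859 and 0.534).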

How the data were processed

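RNA was hybridised to Affymetrix Mouse Gene 1.0 ST arrays. The deposited values are log2 expression per probe set, made by the authors with RMA per the submitters' processing notes, and the RMA software is not given in the sources used here. Of 35557 probe sets, 21789 had exactly 1 symbol in the platform annotation, and 21698 of those were updated by Entrez identifier to RefSeq (GRCm38.p6). The brightest probe set stood for each of 19938 genes, and 17781 genes above the 25th percentile of their array on at least 2 arrays were tested. Medians of the 5 arrays ran from 6.71 to 6.79, and no further scaling was applied.

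Differences were fitted with limma 3.58.1 in R 4.3.3, with 1 mean per group over 35 arrays (23 residual degrees of freedom), moderated variances, two-sided tests and Benjamini-Hochberg adjustment over all genes tested at 0.05. The median standard error of an XY minus XX difference at TS24 was 0.236. The number of arrays limits the precision. The labels do not say whether replicates were separate pools. A p-value thus reflects the spread between the arrays of the fit alone, and that spread may be technical.

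The genes named are 4 markers given for this comparison, the 15 highest and 15 lowest called genes without overlap between the sexes, all members of the Nodal and meiotic entry lists, the called members of the other lists and 8 genes that check the labels. Outside that rule, Dgka, B2m, Gpd2, Mt2, Dap, Kdm6a, Eif2s3x, Kdm5c, Zfx, Pls3, Rhox6 and Mir181a-2, and uncalled list members given for context, were chosen after their values were seen. The comparison, its members and all lists were chosen with earlier results of these data known. The fit was tested on simulated data with known log2 changes between the sexes at TS24. It called 4 of 67 changes of 0.5, 42 of 67 changes of 1 and 66 of 66 changes of 2. Of the unchanged genes it called 8. Promoter and microRNA sequences are from RefSeq (GRCm38.p6). Alternatives changed the scaling, the filter on dim genes, the arrays in the fit, the variance model, the rule for several probe sets and a replicate block, and left out each replicate in turn. Same-numbered XY and XX germ samples at TS24 did not deviate together (r of -0.19 and -0.21), so the numbers were not taken as pairs.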

Additional observations from a re-analysis of the deposited data

Results flagged for a closer look

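The XY minus XX difference of the genes below changed between stages by limma's contrast of the differences, which is why they are listed. The values are log2 changes of the difference, and their groups are those of the stage comparison above. Standard errors of a change are given there only for the largest changes from TS13 to TS24. Other standard errors above belong to the difference at a single stage. From TS13 to TS24 it changed toward XY by 3.16 for Mgst2, 2.42 for Etv1, 2.32 for Cst9, 2.0 for Tdgf1, 1.84 for Gatm, 1.80 for Hesx1, 1.73 for Irgm1, 1.70 for Dgka and 1.49 for Pdlim3. It changed toward XX by -3.68 for AU015836, -2.28 for 1700013H16Rik, -2.24 for Phlda2, -1.99 for Stra8, -1.98 for Cubn, -1.98 for B2m, -1.96 for Mdk, -1.77 for Dnah8, -1.76 for Nr6a1, -1.58 for Gpd2, -1.57 for M1ap, -1.35 for Porcn and -1.34 for Dsp.

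From TS24 to TS34 the difference changed by -3.32 for Meioc, -2.90 for Stra8, -2.53 for Meiob, -2.33 for M1ap, -1.68 for Tex101, -1.44 for Tex11 and -1.29 for Rec8. It changed by 1.58 for Hesx1, 1.45 for Ndn, 1.40 for Tet2, 1.40 for Dap, 1.24 for Impact and 1.23 for Dgka.

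The library labelled XX germ cells at TS24, replicate 3, which the comparison left out, had somatic genes far above the 5 arrays used. Wt1 was at 11.19, the stromal receptor gene Pdgfra at 10.60 and Dcn at 10.12, where the 5 arrays had at most 8.19, 7.05 and 7.99.

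Among probe sets without a single gene symbol, which no comparison above uses, 46 of 10971 tested (0.419%) were called between XY and XX germ cells at TS24, 25 higher and 21 lower in XY.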

How the results depend on the processing

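Of the 65 named genes called at TS24, 38 kept their call under every alternative other than adding the left-out library, and 55 did so when settings without single replicates were set aside too. The number of called genes at TS24 (345) was 745 with quantile normalization (343 shared), 734 with median centring (344 shared), 767 with all 36 arrays (217 shared) and 219 with the replicate block (197 shared), where 10 named genes lost the call. Without single replicates it ran from 88 to 309. Other settings gave 307 to 362. The replicate block gave XY replicate 3 of TS24, which has no XX partner in the fit, a term of its own. Its TS24 differences are therefore those without that array, as for Lefty2 (0.60 in both). The 55 genes above kept the call under this block too. For the change from TS13 to TS24 (27), the count was 61 with quantile normalization, 63 with median centring, 14 with all 36 arrays, 62 with germ arrays only, 55 with the replicate block, and 19 to 142 without single replicates. For the change from TS24 to TS34 (203), it was 313 with quantile normalization, 128 with the replicate block, and 60 to 444 without single replicates. The sign of 2 called genes turned: Meioc had 0.01 without XX replicate 1 (adjusted p = 0.99; -2.48 to 0.01 over single replicates left out), and Rhox6 had 0.14 with all 36 arrays (adjusted p = 0.932). The cause was not tested. Low values near the background of an array compress differences, and groups of 3 and 2 arrays leave small differences uncalled.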

Other observations

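Mt2, a metallothionein gene that binds zinc and copper, was at 7.97, 7.52 and 8.81 on the XY arrays, against 10.33 and 9.32 on the XX arrays at TS24. The sexes did not overlap, although both groups spread over about 1 log2 unit. The difference was -1.72 ± 0.35 (adjusted p = 0.00217, limma; 0.134 without XX replicate 1 and 0.0509 without XY replicate 2), and at TS34 it was -0.66 ± 0.31 (adjusted p = 0.209). With the left-out library added, the TS24 difference was -0.94 (adjusted p = 0.215, limma). Mt2 fell by 2.02 between TS13 and TS24 in XY germ cells (adjusted p = 2.41e-05), and the step in XX germ cells was -0.58 (adjusted p = 0.538). The contrast of the sex differences at TS24 and TS13 did not call Mt2, so the 2 steps are given side by side only.

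Eif2s3y on XX replicate 1, at 5.73, lay above XX replicate 2, at 4.46, and above the mean of 4.47 in XX supporting cells at TS24.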
